A study of Mus musculus with 18 samples.

Results

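The genes that take up, make, carry and sense retinoic acid were followed in mouse embryonic fibroblasts (MEFs) that lack the DNA glycosylase gene Tdg. Membership was set by gene name and covered 9 genes, the carriers Crabp1 and Crabp2, the receptors Rara, Rarb, Rarg and Rxra, the synthesis enzyme gene Aldh1a2, the degradation enzyme gene Cyp26b1 and the uptake receptor gene Stra6. The platform annotation placed 8 of them on 10 of the 22690 Affymetrix probe sets (groups of short probes for 1 transcript). Cyp26b1 matched none and was not analysed here. The mutant cells were Tdg-/- MEFs of clone 9, and they were set against Tdg+/- MEFs of clone 4, with 3 arrays per genotype. Both lines were immortalised with SV40 and grown in serum-containing medium, and their labels name no added retinoid. Each genotype was 1 clone, so genotype and clone cannot be told apart, and the Tdg+/- cells themselves carried only 1 working copy of Tdg. These 6 arrays are part of a series of 18 samples, whose embryonic stem cell and neuronal precursor samples were not used here. No label says that the 3 arrays of a genotype came from separate cultures, so p-values measure the spread between arrays, which may be technical.

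Retinoic acid is made in the cell from retinol, which STRA6 takes up from its serum carrier and retinaldehyde dehydrogenases such as ALDH1A2 convert in the last step. CRABP1 and CRABP2 bind retinoic acid in the cytoplasm, and CRABP2 hands it to retinoic acid receptors (RARs) in the nucleus, while CYP26 enzymes degrade it. RARs bind DNA together with retinoid X receptors (RXRs) at paired copies of a short half-site, and switch target genes from repressed to active when retinoic acid binds. TDG protein is known to interact with RARs and RXRs, and it removes oxidised methylcytosine from DNA.

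All levels are log2 signals as deposited, on which a difference of 1 is a doubling. The table gives no detection calls, so the median of 33 probe sets for olfactory receptors, which fibroblasts do not normally express, served as a guide to the low end of the scale; it was 6.29. The 6 arrays had medians from 7.38 to 7.42, and their number limits the precision. One array, MEF_het replicate 1, stood apart, with correlations of 0.936 to 0.962 to the other arrays, against 0.982 to 0.998 among those. Values without it are given beside many, not all, of the results that it moves. The 3 probe sets shared by Tdg and its pseudogenes were 3.46-fold to 6.30-fold lower in Tdg-/- MEFs, with no overlap between genotypes, and the labels do not tell which stretch of Tdg was removed. Of 13 measured fibroblast markers 12 lay above the olfactory receptor median, among them Vim at 13.36 in Tdg-/- and 13.27 in Tdg+/- MEFs. Above it also lay 8 of 12 neural, 5 of 10 epithelial, 3 of 8 endothelial and 5 of 7 blood cell markers. This guide therefore does not tell which cell types were present.

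Crabp2 was the retinoid gene that changed. Its signal was 6.59, 6.68 and 6.56 in the 3 Tdg-/- arrays, against 8.20, 8.30 and 8.39 in the 3 Tdg+/- arrays. All 3 Tdg-/- values lay below all Tdg+/- values, and the arrays of each genotype lay close together, with an SD of 0.06 in Tdg-/- and 0.10 in Tdg+/- MEFs (n = 3 each). The fall was 3.22-fold, a log2 fold change of -1.69 ± 0.09 (SE; limma adjusted p = 0.000393 over all genes), with a 95% confidence interval of -1.91 to -1.47. In a ranking of 12394 genes, Crabp2 stood at place 15 by p-value and place 39 by size of change. It passed in each of 13 alternative settings, with log2 fold changes from -1.78 to -1.64 and adjusted p-values up to 0.00890, while the share of all genes past the test ranged from 0.766% without MEF_KO replicate 3 to 22.0% without MEF_het replicate 1. The level of 6.61 in Tdg-/- MEFs exceeded 66.7% of the olfactory receptor probe sets, whereas 8.30 in Tdg+/- MEFs exceeded 100%. Crabp2 signal without Tdg therefore lay within the range of those receptors, where a fold change may be understated. In RNA of whole cultures, fewer expressing cells and less Crabp2 RNA per cell cannot be told apart.

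Crabp1, the other cytoplasmic binding protein gene, was lower in Tdg-/- MEFs without passing the test on all 6 arrays. It measured 8.04, 8.31 and 8.33 in Tdg-/- arrays and 8.54, 8.83 and 8.92 in Tdg+/- arrays. The genotypes did not overlap, but the gap between the nearest arrays was narrower than the range within either genotype. The log2 fold change was -0.53 ± 0.14 (SE; limma adjusted p = 0.0922), and the interval ran from -0.86 to -0.21. MEF_het replicate 1 had the lowest Crabp1 value of the Tdg+/- arrays. Without it the log2 fold change was -0.65 and passed (limma adjusted p = 0.000186), where 22.0% of all genes passed. It also passed with quantile normalization (-0.65; limma adjusted p = 0.0180), where 4.84% of all genes passed. It passed once more with that array corrected by loess (-0.65; limma adjusted p = 0.0142), where 6.37% passed and 2.32% fell, and in none of its other 10 alternatives.

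**Figure D1:**
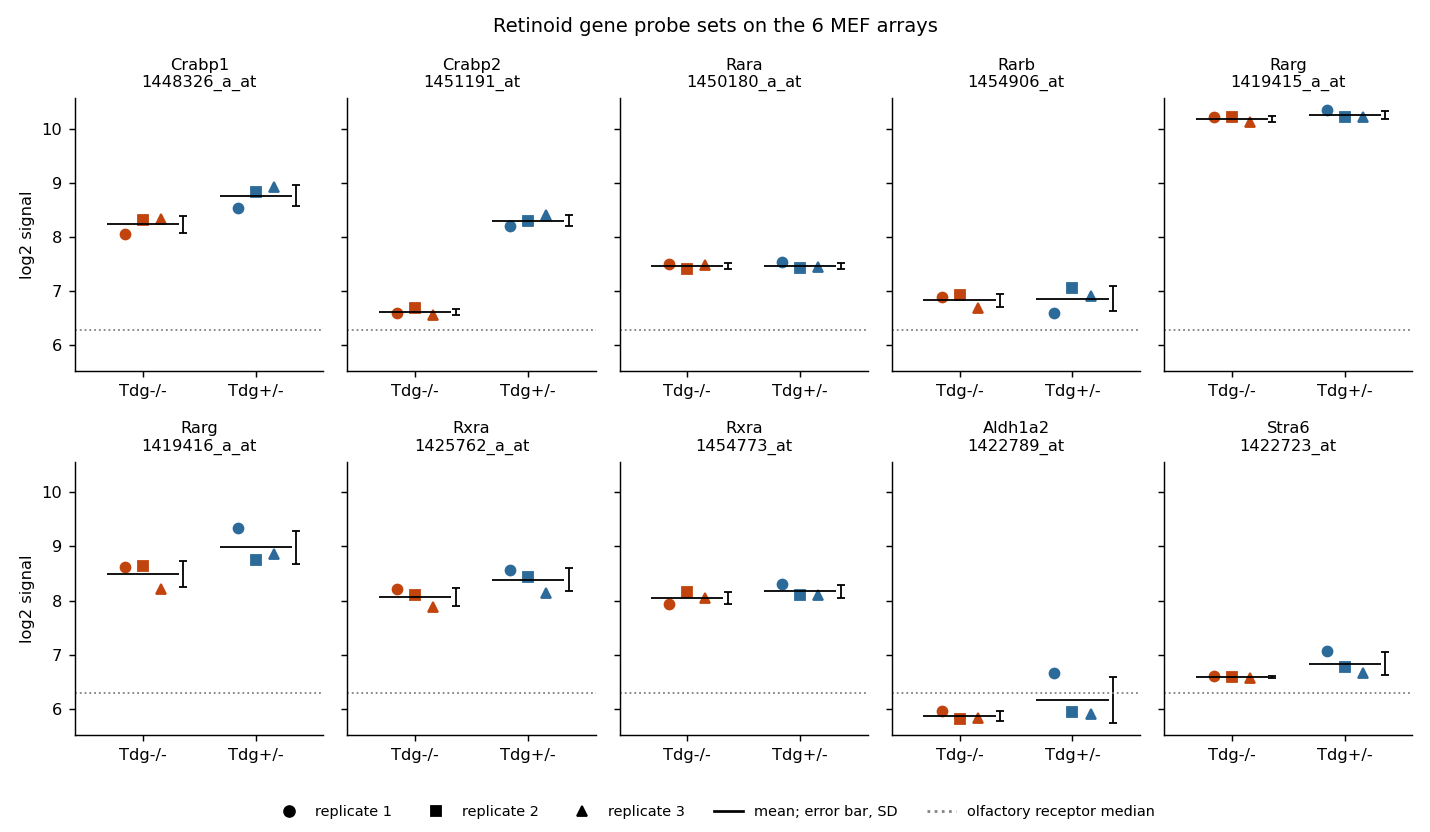
Log2 signal (vertical axis) of each of the 10 retinoid probe sets on the 3 Tdg-/- arrays (left) and the 3 Tdg+/- arrays (right) of MEFs; symbols mark the replicate number, the line is the mean, the bar the SD, and the dotted line the olfactory receptor median of 6.29. Crabp2 is the probe set whose genotypes lie far apart, while Rara and the brighter Rarg probe set have nearly the same mean in both.

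The receptors that retinoic acid acts through did not pass the test, and for 2 of them the interval was narrow. Rara, which encodes RAR alpha, measured 7.50, 7.40 and 7.48 in Tdg-/- arrays, against 7.53, 7.42 and 7.44 in Tdg+/- arrays. The values of both genotypes were interleaved, and the log2 fold change of 0.00 ± 0.08 (SE; limma adjusted p = 0.996) had an interval of -0.20 to 0.20. A Rara level in Tdg-/- MEFs below 0.870 times or above 1.15 times that of Tdg+/- MEFs thus lay outside the interval.

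Rarg, which encodes RAR gamma, had 2 probe sets. The brighter one measured 10.21, 10.22 and 10.12 in Tdg-/- arrays and 10.34, 10.21 and 10.22 in Tdg+/- arrays, overlapping, with a log2 fold change of -0.07 ± 0.09 (SE; limma adjusted p = 0.566). Its interval ran from -0.28 to 0.13. The second Rarg probe set measured 8.63, 8.64 and 8.22 in Tdg-/- arrays and 9.33, 8.75 and 8.86 in Tdg+/- arrays. There all Tdg-/- arrays were lower, but the log2 fold change of -0.49 ± 0.19 (SE; limma adjusted p = 0.229 over all probe sets) did not pass, and it was -0.31 without MEF_het replicate 1, the highest of the 6. The intervals of both Rarg probe sets overlap, from -0.28 to 0.13 and from -0.94 to -0.03.

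Rxra, which encodes RXR alpha, the partner of the RARs on DNA, also had 2 probe sets, each overlapping between genotypes. The brighter measured 8.21, 8.11 and 7.88 in Tdg-/- arrays and 8.56, 8.44 and 8.14 in Tdg+/- arrays, a log2 fold change of -0.31 ± 0.14 (SE; limma adjusted p = 0.247). The other measured 7.93, 8.15 and 8.05 in Tdg-/- arrays and 8.31, 8.11 and 8.10 in Tdg+/- arrays, and its log2 fold change was -0.13 ± 0.10 (SE; limma adjusted p = 0.439 over all probe sets). Without MEF_het replicate 1 the log2 fold change of the brighter was -0.22. Neither Rxra probe set passed in any alternative setting.

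Rarb, which encodes RAR beta, is both a receptor gene and a textbook target of retinoic acid. Its signal was 6.88, 6.91 and 6.69 in Tdg-/- arrays, against 6.60, 7.06 and 6.90 in Tdg+/- arrays, so that the Tdg-/- values fell inside the Tdg+/- range. The log2 fold change was -0.02 ± 0.14 (SE; limma adjusted p = 0.912) with an interval of -0.36 to 0.31, and it lay between -0.15 and 0.08 in the alternative settings. Mean Rarb signal exceeded 81.8% of the olfactory receptor probe sets. Its promoter is shown because it holds a copy of the kind of motif that RAR and RXR bind; a match is a description of the letters, not evidence of binding. The motif searched, on both strands, was a direct repeat with 5 bases between the half-sites (DR5), each half-site being AGGTCA or AGTTCA or GGGTCA or GGTTCA. Of 32851 RefSeq windows of 250 bases before a gene start (GRCm38.p6), 29 hold a DR5, or 0.0883%. Of the 74 retinoid and target genes with a window, 2 hold one, Rarb and Cyp26a1; their windows are shown with the DR5 in capitals, and neither holds a direct repeat with 1 or 2 bases between the half-sites. The Rarb window lies on the minus strand at chr14:16575477-16575726 and the Cyp26a1 window on the plus strand at chr19:37697558-37697807, and both are written along their own gene.
Rarb: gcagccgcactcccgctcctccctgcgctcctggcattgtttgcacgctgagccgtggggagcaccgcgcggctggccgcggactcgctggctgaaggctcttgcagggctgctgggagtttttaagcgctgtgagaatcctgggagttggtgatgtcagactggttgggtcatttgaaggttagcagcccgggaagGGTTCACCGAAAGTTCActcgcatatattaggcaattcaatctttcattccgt
Cyp26a1: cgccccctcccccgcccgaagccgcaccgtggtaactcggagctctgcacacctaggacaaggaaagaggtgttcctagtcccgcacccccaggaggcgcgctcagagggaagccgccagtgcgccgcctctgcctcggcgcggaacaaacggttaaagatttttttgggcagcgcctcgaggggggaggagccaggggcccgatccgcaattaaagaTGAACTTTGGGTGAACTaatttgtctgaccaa
In Rarb the repeat spans positions -53 to -37 counted from the gene start, and it reads along the gene as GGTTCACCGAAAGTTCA. In Cyp26a1 it spans -32 to -16 and lies on the opposite strand, where it reads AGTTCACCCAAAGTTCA. The windows of Crabp1, Rxra, Rara, Rarg, Aldh1a2, Stra6 and Cyp26b1 held no direct repeat with 1, 2 or 5 bases between the half-sites.

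Aldh1a2, the gene of the retinaldehyde dehydrogenase that makes retinoic acid in embryonic mesoderm, was at the low end of the scale. It measured 5.96, 5.80 and 5.82 in Tdg-/- arrays and 6.65, 5.93 and 5.91 in Tdg+/- arrays. The genotypes overlapped, and MEF_het replicate 1 was 0.73 above the mean of the other Tdg+/- arrays. The log2 fold change was -0.30 ± 0.21 (SE; limma adjusted p = 0.348) and shrank to -0.06 without that array. Aldh1a2 exceeded only 33.3% of the olfactory receptor probe sets, so its expression was not established in either genotype.

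Stra6, the cell surface receptor for the retinol carrier of serum, measured 6.60, 6.59 and 6.57 in Tdg-/- arrays and 7.06, 6.77 and 6.65 in Tdg+/- arrays. All Tdg-/- arrays were lower, by a log2 fold change of -0.25 ± 0.12 (SE; limma adjusted p = 0.267) that did not pass and was -0.13 without MEF_het replicate 1. Stra6 exceeded 66.7% of the olfactory receptor probe sets.

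Over the 8 measured retinoid genes, 1 fell, none rose and 7 did not pass; the same 1 of 10 held for probe sets, where Crabp2 had an adjusted p of 0.000720 in limma. Among all genes the share past the test was 3.83% in either direction and 1.32% downward (312 rose and 163 fell, against 332 and 268 with quantile normalization), and among all probe sets 3.02% in either direction and 1.07% downward. A single call among so few genes gives no result about the group. The arrays of both genotypes did not overlap for 3 of the 8 genes, Crabp1, Crabp2 and Stra6, all lower in Tdg-/- MEFs; among all genes this share was 39.5% in either direction, 22.6% upward and 16.8% downward. The median log2 fold change of the 8 genes was -0.27, beside -0.02 for all genes. Without MEF_het replicate 1 the median was -0.14, beside -0.03 for all genes, and Crabp1 and Crabp2 fell, where 14.1% of all genes rose and 7.87% fell.

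**Figure D2:**
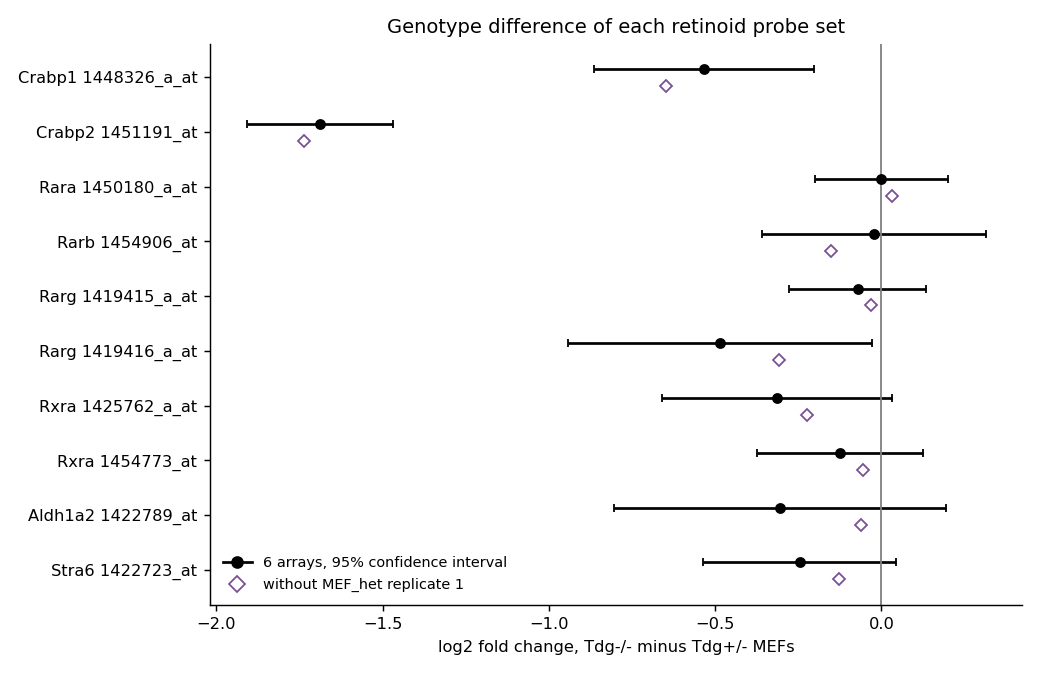
Log2 fold change of Tdg-/- over Tdg+/- MEFs (horizontal axis) for each retinoid probe set: filled points with 95% confidence intervals use all 6 arrays, open diamonds leave out MEF_het replicate 1. Crabp2 stands at -1.69, and the intervals of 7 probe sets cross 0.

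Other genes of the pathway were read from lists of carriers, enzymes, receptors and targets. These lists were chosen with earlier results of these data known, so their counts are descriptions. Of 12 measured genes of retinoid uptake, transport and storage, 2 rose, none fell and 10 did not pass, where 2.52% of all genes rose. The list's median log2 fold change was -0.02. Fabp5, which encodes a fatty acid binding protein that can carry retinoic acid to the nuclear receptor PPAR delta, rose while Crabp2 fell. Its signal was 11.20, 11.24 and 11.40 in Tdg-/- arrays, against 9.60, 9.92 and 10.24 in Tdg+/- arrays. All Tdg-/- arrays were higher, with a fold of 2.58 (log2 fold change 1.36 ± 0.17, SE; limma adjusted p = 0.00948). Both Fabp5 probe sets passed, with adjusted p-values of 0.0126 and 0.0147 over all probe sets. The call was lost without MEF_het replicate 2 (limma adjusted p = 0.0640) and without MEF_KO replicate 1, 2 or 3 (0.0585, 0.0664 and 0.0780), at log2 fold changes of 1.30 to 1.40. Without MEF_het replicate 1 the log2 fold change of Fabp5 was smaller, at 1.20. Lrp1, an endocytic receptor for lipoproteins including those that carry retinyl esters, rose 1.79-fold, at 10.01 ± 0.15 in Tdg-/- and 9.17 ± 0.09 in Tdg+/- MEFs (SD, n = 3; limma adjusted p = 0.0111). Lrp1 did not pass without MEF_het replicate 2 (limma adjusted p = 0.0674) or without MEF_KO replicate 2 (0.0798) or 3 (0.0892). Without MEF_het replicate 1, 3 genes of this list rose and 2 fell, where 14.1% of all genes rose and 7.87% fell. With other single arrays left out 0 to 2 rose, where 0.411% to 2.25% of all genes rose.

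None of the 3 other receptor genes passed in limma. Rxrb, which encodes RXR beta, measured 9.06, 9.01 and 9.08 in Tdg-/- arrays and 8.61, 8.71 and 8.69 in Tdg+/- arrays, all higher without Tdg (log2 fold change 0.38 ± 0.08, SE; limma adjusted p = 0.0563). It was named after its values were seen, and it passed without MEF_het replicate 1 (0.35; limma adjusted p = 0.00376). Ppard, the PPAR delta gene, averaged 6.34 ± 0.11 in Tdg-/- and 6.77 ± 0.11 in Tdg+/- MEFs (SD, n = 3, limma adjusted p = 0.0781). The Tdg-/- level lay near the olfactory receptor median of 6.29, and the Tdg+/- level just above the upper quartile of 6.75 of those probe sets. Ppard passed without MEF_het replicate 1 (log2 fold change -0.37, limma adjusted p = 0.00576). Rxrg, the RXR gamma gene, measured 7.01, 7.05 and 6.92 in Tdg-/- arrays and 8.27, 7.24 and 7.18 in Tdg+/- arrays (log2 fold change -0.57; limma adjusted p = 0.270), with MEF_het replicate 1 far above the rest. Without that array the log2 fold change of Rxrg was -0.22 (limma adjusted p = 0.0620). The median log2 fold change of these 3 genes was -0.43 on all arrays, and -0.22 without that array. In that setting 1 of them rose and 1 fell, where 14.1% of all genes rose and 7.87% fell.

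Among 23 genes of retinoid synthesis, 1 rose, none fell and 22 did not pass, where 2.52% of all genes rose. The list's median log2 fold change was -0.14. Cyp1b1, a cytochrome P450 gene whose enzyme can oxidise retinol, rose 1.49-fold, at 11.38 ± 0.06 in Tdg-/- and 10.80 ± 0.17 in Tdg+/- MEFs (SD, n = 3; limma adjusted p = 0.0435). Of its 3 probe sets 2 were higher, none passed in the limma fit over all probe sets, and the call was lost without MEF_het replicate 2 (limma adjusted p = 0.154) and without MEF_KO replicate 1, 2 or 3 (0.200, 0.191 and 0.231). Without MEF_het replicate 1, 6 synthesis genes rose and 1 fell, where 14.1% of all genes rose and 7.87% fell, and the median was -0.06. With another array left out, 0 to 1 rose, where 0.411% to 2.25% of all genes rose.

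None of 4 measured degradation genes passed in limma, and their median log2 fold change was -0.01. Without MEF_het replicate 1 the median was -0.18 and 1 of them fell, where 7.87% of all genes fell. Cyp26a1, the retinoic acid hydroxylase gene whose promoter is printed beside that of Rarb, measured 7.01, 7.11 and 7.03 in Tdg-/- arrays and 8.67, 7.68 and 7.59 in Tdg+/- arrays. The Tdg-/- mean of 7.05 lay near 7.03, the 90th percentile of the olfactory receptor probe sets. All Tdg-/- arrays were lower, and MEF_het replicate 1 was far above the rest. The log2 fold change was -0.93 ± 0.28 (SE; limma adjusted p = 0.127), and without that array it was -0.58 and passed (limma adjusted p = 9.00e-05). Cyp2c39, a P450 gene, averaged 6.81 ± 0.02 in Tdg-/- and 6.87 ± 0.09 in Tdg+/- MEFs (SD, n = 3), with overlapping arrays. The 2 genes with a DR5 thus had log2 fold changes of -0.93 for Cyp26a1 and -0.02 for Rarb, neither past the test on all arrays.

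**Figure D3:**
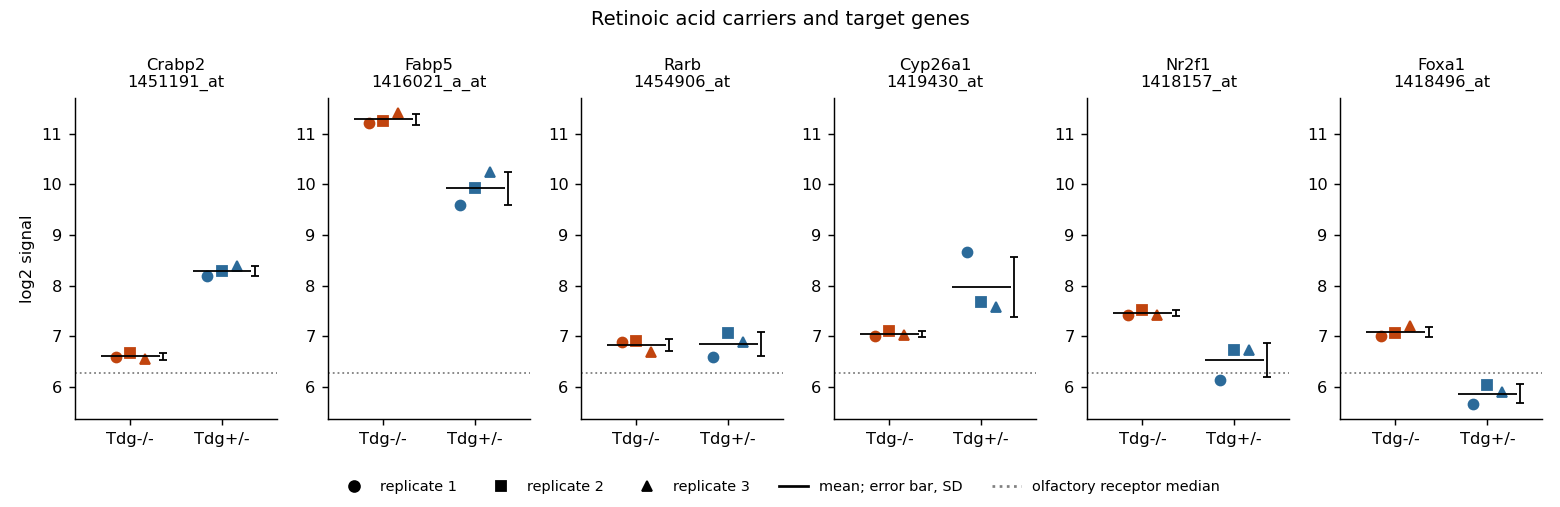
Log2 signal (vertical axis) on the 3 Tdg-/- arrays (left) and 3 Tdg+/- arrays (right) for the carriers Crabp2 and Fabp5, the DR5-bearing genes Rarb and Cyp26a1, and the target genes Nr2f1 and Foxa1; symbols, lines and bars are replicate, mean and SD, and the dotted line is the olfactory receptor median of 6.29. Crabp2 is lower and Fabp5 higher on every Tdg-/- array, and MEF_het replicate 1 is the outlying Cyp26a1 point.

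Of 29 measured genes known to respond to retinoic acid in various cells, 5 rose, none fell and 24 did not pass; their median log2 fold change was -0.11. The upward share among all genes was 2.52%. The direction in which each gene responds to retinoic acid was not used, so these counts do not measure retinoic acid activity. Klf4, a zinc finger factor of epithelia and stem cells, rose 2.49-fold, at 8.84 ± 0.10 in Tdg-/- and 7.53 ± 0.41 in Tdg+/- MEFs (SD, n = 3; limma adjusted p = 0.0213). Foxa1, a forkhead factor of endoderm, rose 2.33-fold, at 7.02, 7.06 and 7.21 in Tdg-/- arrays and 5.67, 6.05 and 5.91 in Tdg+/- arrays (limma adjusted p = 0.00433). The Tdg+/- values of Foxa1 all lay under the olfactory receptor median, so its expression there was not established and the fold may be understated. The call held in all of its 12 alternative settings, with adjusted p-values up to 0.0426. Ccnd1, which encodes cyclin D1, rose 1.86-fold, at 11.69 ± 0.13 in Tdg-/- and 10.80 ± 0.24 in Tdg+/- MEFs (SD, n = 3; limma adjusted p = 0.0243), and all 3 of its probe sets passed. Nr2f1, the orphan receptor gene COUP-TFI, measured 7.42, 7.53 and 7.42 in Tdg-/- arrays and 6.14, 6.74 and 6.73 in Tdg+/- arrays (limma adjusted p = 0.0385). Its Tdg+/- values lay under the upper quartile of 6.75 of the olfactory receptor probe sets, and that of MEF_het replicate 1 under their median of 6.29. The fifth gene, Tgm2, a transglutaminase gene, named after its values were seen, rose 1.39-fold (limma adjusted p = 0.0400).

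The calls other than that of Foxa1 were lost when some single arrays were left out. Klf4, Ccnd1, Nr2f1 and Tgm2 did not pass without MEF_het replicate 2 (limma adjusted p = 0.0965, 0.0948, 0.103 and 0.161). They also did not pass without MEF_KO replicate 1 (0.120, 0.133, 0.164 and 0.206), replicate 2 (0.109, 0.102, 0.202 and 0.229) or replicate 3 (0.127, 0.152, 0.190 and 0.149) in limma. Nr2f1 and Tgm2 did not pass without MEF_het replicate 3 either (limma adjusted p = 0.0507 and 0.0682). Where each call was lost to a left-out array, the log2 fold change was 1.26 to 1.37 for Klf4, 0.84 to 0.96 for Ccnd1, 0.89 to 1.02 for Nr2f1 and 0.43 to 0.52 for Tgm2. Without MEF_het replicate 1 it was smaller for Klf4 (1.09), Ccnd1 (0.75) and Nr2f1 (0.72). In the target list 1 gene rose when MEF_het replicate 2 or any single MEF_KO array was left out, where 0.411% to 0.557% of all genes rose. Without MEF_het replicate 3, 3 target genes rose, where 2.25% of all genes did. Without MEF_het replicate 1, 7 target genes rose and 4 fell, where 14.1% of all genes rose and 7.87% fell, and the median of the list was -0.07.

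The 14 measured coactivators and corepressors of nuclear receptors had no gene past the test in limma, and a median log2 fold change of 0.27. Tbl1xr1, a subunit of the NCoR corepressor complex, averaged 9.42 ± 0.09 in Tdg-/- and 8.74 ± 0.31 in Tdg+/- MEFs (SD, n = 3; limma adjusted p = 0.0784). Kat2b, a histone acetyltransferase, averaged 9.30 ± 0.09 in Tdg-/- and 8.69 ± 0.39 in Tdg+/- MEFs (SD, n = 3; limma adjusted p = 0.144). Other probe sets of both genes differed less, at a log2 fold change of 0.06 for the second of Kat2b and 0.13 to 0.47 for the other 3 of Tbl1xr1. Averaged over probe sets, the log2 fold change was 0.37 for Tbl1xr1 and 0.34 for Kat2b. MEF_het replicate 1 had the lowest value of both genes. Without it the median of the list was 0.03 and 3 genes rose, where 14.1% of all genes did, Tbl1xr1 (log2 fold change 0.51; limma adjusted p = 0.000704) and Kat2b (0.39; limma adjusted p = 0.00512) among them.

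**Figure D4:**
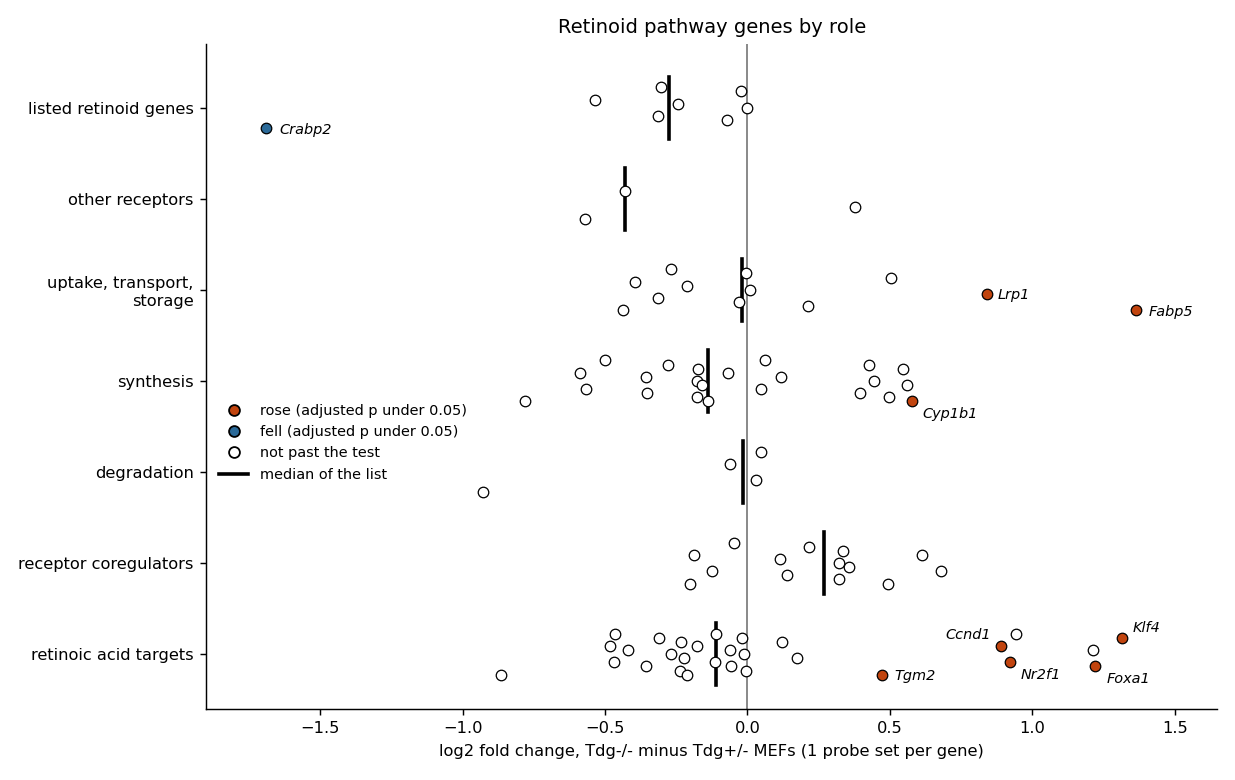
Log2 fold change of Tdg-/- over Tdg+/- MEFs (horizontal axis) for every measured gene of 7 retinoid lists (rows), 1 probe set per gene; filled points passed the test, open points did not, and black bars are list medians. Crabp2 is the filled point to the left of 0, and the 8 to its right are Fabp5, Lrp1, Cyp1b1, Tgm2, Ccnd1, Nr2f1, Foxa1 and Klf4.

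Some markers of cell type moved with genotype too, where 1.32% of all genes fell and 2.52% rose. The marker lists were chosen with earlier results of these data known, so their counts are descriptions. Of 13 fibroblast markers 7 fell and none rose, with a median log2 fold change of -0.65. Arrays did not overlap for 9 lower and 4 higher fibroblast markers, where 16.8% of all genes were lower and 22.6% higher. The summed signal (log2) of a list weighs its brightest genes most. For fibroblast markers it was 15.25 to 15.34 in Tdg-/- and 15.56 to 15.62 in Tdg+/- MEFs. Of 12 neural markers 3 rose, Sox2 (8.58 in Tdg-/- and 4.83 in Tdg+/- MEFs), Nes and Ncam1. The neural list's median log2 fold change was -0.03, and arrays did not overlap for 4 higher and 2 lower markers. Neural sums were 12.17 to 12.28 in Tdg-/- and 11.42 to 11.46 in Tdg+/- MEFs. One of 10 epithelial markers fell, the keratin gene Krt19, with sums of 10.05 to 10.20 in Tdg-/- and 10.91 to 11.09 in Tdg+/- MEFs. Endothelial markers had sums of 10.17 to 10.25 in Tdg-/- and 10.43 to 10.56 in Tdg+/- MEFs, with 1 of 8 past the test, and Kdr the gene that fell. Blood cell markers had sums of 9.86 to 9.90 in Tdg-/- and 9.76 to 10.02 in Tdg+/- MEFs, and 1 of 7, Cd14, rose. Arrays did not overlap for 6 lower epithelial and 5 lower endothelial markers, and for none higher in either list. For blood cell markers they did not overlap for 1 lower and 1 higher. With single arrays left out, 5 to 9 fibroblast markers fell and 2 to 5 neural markers rose. Both highest counts came without MEF_het replicate 1, where 7.87% of all genes fell and 14.1% rose. In the other settings 0.355% to 0.904% of all genes fell and 0.411% to 2.25% rose. In the opposite direction, 1 fibroblast marker rose without MEF_het replicate 1 and without replicate 3. Without MEF_het replicate 1, 1 neural marker fell and 1 epithelial marker rose. The counts of the other lists were 0 to 1 epithelial and 0 to 2 endothelial markers that fell and 0 to 1 blood cell markers that rose, and the endothelial count was 0 in 5 of the 6 settings. The part of these shifts in the fall of Crabp2 was not tested.

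The genes whose 6 values followed Crabp2 most closely were Gjb2 (connexin 26; Pearson r = 0.999), the Wnt regulator gene Sfrp2 (r = 0.999), Cdh3 (P-cadherin; r = 0.998) and Fbln5, which encodes the elastic fibre protein fibulin 5 (r = 0.998). These are descriptions over 6 arrays of 2 genotypes, in which any gene with a steady difference between genotypes scores high. Gjb2 averaged 6.98 ± 0.03 in Tdg-/- and 10.10 ± 0.14 in Tdg+/- MEFs, and Fbln5 averaged 10.85 ± 0.05 in Tdg-/- and 11.79 ± 0.01 in Tdg+/- MEFs (SD, n = 3 each). Cdh3 averaged 7.99 ± 0.03 in Tdg-/- and 8.55 ± 0.05 in Tdg+/- MEFs, a smaller difference with the same profile across arrays.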

How the data were processed

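RNA of 6 MEF samples was read on Affymetrix arrays from 13 µg of total RNA each, per the labels' protocols. The deposited values are log2 expression of 22690 probe sets; among tools, the submitters' processing notes list affy, limma, RMA and MAS5, but no source used here tells which of them gave the values, and none names a genome build. Of the probe sets 20393 had 1 gene symbol, updated through gene identifiers to RefSeq (20364 matched). Each gene was read from its probe set with the highest mean, which gave 12394 genes with no filter on low values.

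Groups were compared with limma 3.58.1 (lmFit and eBayes, R 4.3.3). Benjamini-Hochberg adjustment ran over all genes or all probe sets, with a threshold of 0.05. The procedure was also run on simulated data, with no result reported here. No 2 arrays were identical. Members and lists were chosen with earlier results of these data known. Named genes were the 9 members, Tdg, up to 4 changed genes of each list (otherwise the 2 with the largest change), the 4 genes most like each changed member, and cell type markers. Alternatives were other normalizations, variance models, filters and probe set rules, a replicate block and leaving out each array. Promoter windows came from RefSeq GRCm38.p6; Crabp2 has none in that table.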

Additional observations from a re-analysis of the deposited data

How the results depend on the processing

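Crabp2 fell past the threshold in all 13 alternatives run for it. Crabp1 is the member whose call changed, with 2 members lower instead of 1 under quantile normalization, under loess correction of MEF_het replicate 1, and without that array (1 to 2 over the arrays left out); the counts of probe sets were the same. For all genes the count of 475 was 237 with the replicate block, 790 with the loess correction, and 95 to 2722 with 1 array left out. For all probe sets the 686 called were 289 with the replicate block, 1140 with the loess correction, and 121 to 4055 with 1 array left out. Same-numbered arrays of the genotypes had deviations correlated at 0.30, 0.05 and 0.27, against -0.36 to 0.11 for arrays of unlike numbers. Whether same-numbered arrays shared a batch was not tested, and the main fit did not pair them. With the replicate block 1 member still fell. Klf4 (adjusted p = 0.0509), Ccnd1 (0.0509), Nr2f1 (0.0547), Cyp1b1 (0.0808) and Tgm2 (0.0818) did not pass in limma with that block. With quantile normalization Nr2f1 (0.0565) and Tgm2 (0.209) did not pass. Of the single-gene and probe set results, 372 stayed on the same side of the threshold, 42 were lost, 17 were gained and none changed sign past the threshold. The cause of these changes was not tested. Levels within the range of the olfactory receptor probe sets limit what can be said of Aldh1a2, Stra6, Rarb and Ppard. The same limit holds for Crabp2, Cyp26a1 and Rxrg in Tdg-/- MEFs and for Nr2f1 and Foxa1 in Tdg+/- MEFs. Rara exceeded 93.9% of those probe sets.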
